A study of Mus musculus with 24 samples.

Results

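Probes Mm015, Mm024, Mm034, Mm059, Mm102 and Mm150 are 6 of the 120 mouse probes of the Sterolgene V1 array, a focused design for genes of drug metabolism and cholesterol homeostasis. They were chosen by their low ratios of phenobarbital-treated to vehicle signal in livers of PXR-deficient mice. All 6 passed the filter on dim probes, which left 80 probes for testing. None of the 6 could be tied to a gene in the sources used here, so each is described by its probe number, without a role or a sequence.

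Phenobarbital is a barbiturate that induces drug-metabolizing enzymes in liver. CAR and PXR are nuclear receptors that sense foreign compounds, bind DNA as partners of RXR and switch on genes such as those of the CYP2B and CYP3A subfamilies. In liver both receptors are also known to touch cholesterol and bile acid metabolism, and their target genes overlap.

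The arrays compared male C57BL/6J mice that were PXR-deficient, CAR-deficient, deficient in both receptors (CAR/PXR-deficient) or wild type (WT), with 6 arrays in each of the 4 groups. The deficient mice were 9 to 12 weeks old, and no age is used here for WT. Treated mice received 100 mg/kg phenobarbital intraperitoneally 12 h before the liver was taken. On every array Cy5 carried RNA of treated liver. Cy3 carried RNA pooled from 6 vehicle-injected mice of that genotype, the vehicle being corn oil with 5% DMSO. A log2 ratio above 0 is therefore a higher signal in treated liver than in the pool of its own genotype. The dyes were never swapped, and the Cy3 spread within a genotype is that of repeated hybridizations of 1 pool. How the receptor deletions were made is not given in the sources used here, and neither the genotypes nor the tissue could be checked on marker transcripts. The labels do not say that replicates were separate mice, so p-values speak only of the spread among the arrays at hand, which may be technical. In whole liver RNA, fewer cells of a type and less RNA per cell cannot be told apart.

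Some arrays stood close together. PXR-deficient replicates 1 and 2 differed by no more than sampling noise, with 1.02 times the variance that their replicate spots predict. They count here as 1 sample, so PXR-deficient liver has 5 samples and the series 23. WT replicates 2 and 6 were the next closest pair of a group, at 1.75 times. CAR/PXR-deficient replicates 1 and 2 followed at 2.16 times and PXR-deficient replicates 3 and 4 at 2.18 times. The later setting with alike pairs counted once merged the PXR-deficient pairs and the WT pair, but not the CAR/PXR-deficient pair. Arrays lay at 2 positions on the slide as their spot coordinates show, with 5 WT arrays at the higher position and 1 at the lower, against 3 and 3 in each other genotype. Between 45 and 120 probes per array gave a usable ratio.

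In PXR-deficient liver the members' mean log2 ratios had a median of -0.83, against -0.01 over all tested probes. These ratios chose the members, so they are given as a description and carry no test. Mm024 averaged -1.05 ± 0.24 (SD, n = 3), Mm059 averaged -1.05 ± 0.31 (n = 5) and Mm150 averaged -1.04 ± 0.50 (n = 5), each a treated signal more than 2-fold below the pool's. Mm015 averaged -0.63 ± 0.27 and Mm102 averaged -0.63 ± 0.08 (n = 5 each). Mm034 was the shallowest, at -0.25 ± 0.23 (n = 5). Mm024, Mm059 and Mm150 did not differ from each other beyond their spread, nor did Mm015 from Mm102.

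The 6 are not the 6 lowest probes. Mm001 was lower than all of them at -2.10 ± 0.20 (SD, n = 5) and is not a member. Between Mm102 and Mm034 in the order lay 8 other probes, Mm131 (-0.59), Mm070 (-0.51), Mm056 (-0.48), Mm020 (-0.41), Mm132 (-0.38), Mm135 (-0.36), Mm012 (-0.29) and Mm157 (-0.27). Just above Mm034 were Mm154 at -0.25 and Mm055 at -0.24. Thus Mm034 ranked 15th from the bottom, with 9 probes outside the group at lower values.

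Mm102 had the smallest spread of the members in PXR-deficient liver. Its ratios there were -0.71, -0.59, -0.54, -0.71 and -0.59. The CAR-deficient samples ran from -0.08 through a median of 0.05 to 0.31, the CAR/PXR-deficient samples from -0.33 through -0.02 to 0.22, and the WT samples from 0.10 through 0.36 to 0.80. Every PXR-deficient sample was thus below every sample of the other 3 genotypes. This describes ratios that chose the members, and the share of all tested probes so separated is not given here. The same holds for the ranges of the other members below. The WT ratios of Mm102 were above 0 in 6 of 6 samples.

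For Mm059 the PXR-deficient ratios were -0.90, -0.98, -1.51, -0.68 and -1.15. CAR-deficient samples stayed between -0.22 and 0.38 with a median of -0.03 and did not overlap them. The CAR/PXR-deficient samples fell into high and low ones, with -0.02 and 0.24 in replicates 1 and 2 and -0.73, -1.47, -1.34 and -0.89 in the other 4. WT liver was split as well: replicates 2 and 6 both gave 0.79, while the other 4 lay between -0.72 and -0.25. Without those 2 samples the WT mean was -0.45 instead of -0.04.

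Mm150 gave -0.56, -0.80, -1.02, -1.88 and -0.95 in PXR-deficient liver. Its CAR-deficient samples ran from -0.34 through -0.13 to 0.23, all higher. Its CAR/PXR-deficient samples ran from -0.72 through -0.44 to 0.19 and its WT samples from -0.63 through 0.05 to 0.60, and both overlapped the PXR-deficient range. Again WT replicates 2 and 6 were the highest, at 0.54 and 0.60, and without them the WT mean was -0.19 instead of 0.06.

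Mm015 gave -0.37, -0.55, -0.62, -1.09 and -0.50 in PXR-deficient liver. The CAR-deficient samples lay between -0.34 and 0.01 with a median of -0.24. They lay just above the PXR-deficient samples, but PXR-deficient array 1 by itself, before averaging with array 2, was at -0.34 and level with the lowest of them. CAR/PXR-deficient liver resembled PXR-deficient liver more, with all 6 samples below 0, from -0.75 through -0.48 to -0.21. WT samples ran from -0.38 through -0.15 to 0.27.

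Mm034 gave -0.17, -0.05, -0.04, -0.48 and -0.51 in PXR-deficient liver, with 3 samples near 0 and 2 clearly lower. CAR-deficient samples ran from -0.20 through 0.10 to 0.22, CAR/PXR-deficient samples from -0.03 through 0.16 to 0.43, and WT samples from -0.09 through 0.16 to 0.42. The PXR-deficient range overlapped the CAR-deficient and WT ranges.

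Mm024 was the dimmest member and its ratios rest on few spots. It ranked 77th of the 80 tested probes in brightness, 47 of its 72 spots carried the flag -50, and a ratio remained on 10 arrays. Replicate spots on the same array had an SD of 0.42 log2 units, against a median of 0.18 over tested probes. Its ratios were -0.89, -0.93 and -1.32 in PXR-deficient liver, 1.45, 0.26, 0.22 and 0.92 in CAR/PXR-deficient liver, and 0.19 and 1.51 in WT liver. All 3 PXR-deficient values were negative and all 6 others positive. In PXR-deficient liver its Cy5 signal was above background on 2 of the 6 arrays, and on neither array of sample 1-2. The CAR/PXR-deficient value of 1.45 rests on 1 spot, with neither channel above background. No CAR-deficient ratio was left, since all 18 spots there were flagged. The authors' deposited table lists 2 CAR-deficient values for it, with a mean of 0.68, where the median CAR-deficient probe was at 0.61; with that table's arrays centred on their medians the mean was -0.06.

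Since each ratio is treated liver over its own pool, a low ratio can hold a low treated level, a high pool level, or both. Levels per channel are given on a normalized log2 scale, with the arrays' mean brightness aligned. They compare 1 probe across genotypes, not different probes.

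The pool set Mm024 apart. Its pool averaged 9.47 ± 0.59 in PXR-deficient liver, against 7.91 ± 0.27 in CAR-deficient, 8.17 ± 0.58 in CAR/PXR-deficient and 8.28 ± 0.50 in WT liver (SD over n = 5, 6, 6 and 6 hybridizations). The PXR-deficient values ran from 8.92 to 10.15 and the highest of any other pool was 8.85. Above background were 4 of the 6 PXR-deficient arrays in Cy3, 0 CAR-deficient, 3 CAR/PXR-deficient and 1 WT array. Against the CAR-deficient pool, which was not well above background, the PXR-deficient pool was 2.20-fold higher. Here the dim side was set at the lowest signal above background of each array. The PXR-deficient mean included replicates 5 and 6, not above background in Cy3 (9.06 and 10.08), so 2.20 is not a lower bound. The treated level was 8.25 ± 0.68 in PXR-deficient liver, against 8.08 ± 0.28 in CAR-deficient, 8.95 ± 0.35 in CAR/PXR-deficient and 8.77 ± 1.22 in WT liver. These levels include spots with the flag -50, which the ratios left out.

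Mm059 showed the other pattern against CAR-deficient liver. Treated PXR-deficient liver averaged 9.29 ± 0.33, against 10.49 ± 0.28 in CAR-deficient, 10.06 ± 0.74 in CAR/PXR-deficient and 9.96 ± 0.70 in WT liver (SD, n = 5, 6, 6 and 6). Its pools averaged 10.34 ± 0.13, 10.44 ± 0.19, 10.76 ± 0.20 and 10.00 ± 0.25 in the same genotypes. PXR-deficient minus CAR-deficient was thus -1.20 log2 units in treated liver and -0.11 in the pools. Against CAR/PXR-deficient liver the differences were -0.77 treated and -0.43 in the pools, and against WT liver -0.67 and 0.33. The PXR-deficient treated range, 8.81 to 9.62, overlapped those of CAR/PXR-deficient (9.35 to 11.05) and WT liver (9.21 to 10.88). By brightness rank among the 80 tested probes, however, treated PXR-deficient and WT liver had the same median, 44.5.

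Mm102 and Mm150 had the lowest mean treated levels of the 4 genotypes in PXR-deficient liver, and pools at or above the others. Mm102 averaged 10.47 ± 0.21 in treated PXR-deficient liver, against 10.74 ± 0.19, 11.08 ± 0.26 and 11.25 ± 0.53 in CAR-deficient, CAR/PXR-deficient and WT liver. Its PXR-deficient pool was at 11.10 ± 0.20, against 10.65 ± 0.22, 11.09 ± 0.22 and 10.85 ± 0.28. Mm150 averaged 12.48 ± 0.63 in treated PXR-deficient liver, against 12.75 ± 0.31, 13.02 ± 1.10 and 13.29 ± 0.49, with a PXR-deficient pool of 13.52 ± 0.37, against 12.88 ± 0.25, 13.40 ± 0.83 and 13.23 ± 0.19. For both, the treated ranges overlapped those of each other genotype. Treated PXR-deficient liver differed by -0.26, -0.61 and -0.78 for Mm102 from CAR-deficient, CAR/PXR-deficient and WT liver, and by -0.27, -0.54 and -0.82 for Mm150. The median differences over all tested probes were -0.20, -0.24 and -0.11. Against CAR-deficient liver both members were thus near the median probe.

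Mm015 and Mm034 had treated means closer to those of CAR/PXR-deficient and WT liver than Mm102 and Mm150 had. Against CAR-deficient liver the treated difference of Mm015 (-0.31) was no smaller than those of Mm102 (-0.26) and Mm150 (-0.27). Mm015 had treated means of 11.30 in PXR-deficient liver, against 11.61, 11.51 and 11.60 in CAR-deficient, CAR/PXR-deficient and WT liver, and pool means of 11.93, against 11.80, 12.00 and 11.72. Mm034 had treated means of 11.21, against 11.14, 11.64 and 11.26, and pool means of 11.46, against 11.06, 11.47 and 11.13. The PXR-deficient treated level was the lowest of the 4 genotypes for 4 of the 6 members, and for 35 of the 80 tested probes. The PXR-deficient pool was the highest for 3 of the 6 members and for 18 of the 80.

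The choice of the members was stated for PXR-deficient ratios only. Why probes with lower ratios there were left out is not known, so the other genotypes may have entered it. In that case the p-values below are not independent of the choice. The responses of the other 3 genotypes were tested with limma, adjusted over all tested probes by the Benjamini-Hochberg method at 0.05. In CAR-deficient liver 0 of the 5 measured members passed, as did 0 percent of the 78 probes. At an unadjusted p under 0.05, 12 probes passed and none was a member. The members' CAR-deficient responses lay between -0.19 and 0.09, and the widest interval, that of Mm059, ran from -0.37 to 0.47.

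In CAR/PXR-deficient liver 3 of the 6 members passed, against 33.8 percent of the 80 probes, so passing was common among all probes and the count says little about the members. Mm015 fell by 0.49 (SE 0.09, limma adjusted p = 0.000465), 1.41-fold, with all 6 samples below 0. Its within-position means were -0.51 and -0.47. Mm059 fell by 0.70 (SE 0.20, limma adjusted p = 0.00900), with 5 of 6 samples below 0, and within positions the means were -0.69 and -0.71. It was -0.55 without replicate 4 (limma adjusted p = 0.0525) and -0.57 without replicate 5 (limma adjusted p = 0.0519). With CAR/PXR-deficient liver fitted alone, Mm059 missed the threshold (limma adjusted p = 0.0704). Mm024 rose by 0.71 (SE 0.24, limma adjusted p = 0.0475), opposite to its PXR-deficient ratio, over 4 samples. Its Cy5 signal was above background on 4 of the 6 arrays and its Cy3 signal on 3. Without replicate 1 the value was 0.47 (limma adjusted p = 0.205). With CAR/PXR-deficient liver fitted alone, Mm024 missed the threshold as well (limma adjusted p = 0.0724). The call was also lost without replicate 2, 4 or 5, of which replicate 5 had no ratio, and, at the same value of 0.71, without PXR-deficient sample 1-2, 3 or 4 (limma adjusted p = 0.0596 to 0.0625).

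The other members did not pass there. Mm150 averaged -0.38 (95% interval -0.70 to -0.06, limma adjusted p = 0.0596), Mm034 averaged 0.17 (0.0043 to 0.34, limma adjusted p = 0.109) and Mm102 averaged -0.01 (-0.19 to 0.17, limma adjusted p = 0.929). Among the members, the passing falls without both receptors were thus those of Mm015 and Mm059.

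In WT liver 1 of the 6 members passed, against 25 percent of the 80 probes. Mm102 rose by 0.40 (SE 0.09, limma adjusted p = 0.00146), 1.32-fold. The mean was 0.32 over the 5 arrays at the higher position and 0.80 on the single array at the lower. Replicates 2 and 6 held the 2 highest values, and without both the mean was 0.24 (limma adjusted p = 0.0604). With WT liver fitted alone, Mm102 missed the threshold (limma adjusted p = 0.168). The WT responses of Mm015 (-0.12), Mm034 (0.13), Mm059 (-0.04) and Mm150 (0.06) did not pass, and Mm024 had 2 samples, with a mean of 0.85 and an interval of 0.08 to 1.62.

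Genotypes other than PXR-deficient were then compared with each other. For CAR/PXR-deficient minus WT, 1 of the 6 members passed, against 12.5 percent of the 80 probes. Mm102 had means of -0.01 in CAR/PXR-deficient and 0.40 in WT liver, a difference of -0.41 (SE 0.12, limma adjusted p = 0.0298). In 38 of 40 alternative settings it kept its direction, with a limma adjusted p of 0.0146 to 0.639, and it passed in 22 of them. With arrays centred on the calibration spike-ins it passed in the opposite direction (1.05, limma adjusted p = 0.00264). The same held in the authors' deposited table (1.46, limma adjusted p = 0.000879). Without WT replicates 2 and 6 the Mm102 difference was -0.25 (limma adjusted p = 0.125). Mm059 differed by -0.66 (interval -1.25 to -0.07, limma adjusted p = 0.135). Without CAR/PXR-deficient replicates 1 and 2, the high samples described above, the Mm059 difference was -1.07 and passed (limma adjusted p = 0.00942). That exclusion was chosen after seeing the data. Mm015 differed by -0.37 (-0.64 to -0.10, limma adjusted p = 0.0618).

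For CAR-deficient minus WT, 0 of 5 members passed, against 1.28 percent of the 78 probes. Mm102 came closest, with 0.09 in CAR-deficient and 0.40 in WT liver, a difference of -0.31 (interval -0.56 to -0.05, limma adjusted p = 0.118), the 1 member under 0.05 before adjustment. For CAR/PXR-deficient minus CAR-deficient, 0 of 5 passed, against 7.69 percent. Mm059 differed by -0.75 (interval -1.34 to -0.16, limma adjusted p = 0.0930) and Mm015 by -0.30 (-0.58 to -0.03, limma adjusted p = 0.146), and these 2 had an unadjusted p under 0.05. These intervals leave room for sizeable differences, so a missed threshold does not show equal responses.

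The choice of scale matters for the signs above. With arrays centred on the calibration spike-ins, the median of all tested probes was 0.35 in PXR-deficient, 0.65 in CAR-deficient, 1.12 in CAR/PXR-deficient and -0.36 in WT liver. On that scale the CAR/PXR-deficient response of Mm015 turned to 0.71 and that of Mm059 to 0.43, and the Mm102 difference from WT turned to 1.05. Relative to the median probe, Mm015 was still at -0.42 and Mm059 at -0.70 there. The same centring put the PXR-deficient means of Mm015 at 0.09 and Mm034 at 0.46, and left Mm102 near 0 at -0.03, Mm150 at -0.35, Mm059 at -0.73 and Mm024 at -1.16. PXR-deficient minus WT of Mm015 and Mm034 turned as well, to 0.40 and 0.59. In the authors' deposited table, whose array medians ran from -0.43 to 2.95, the PXR-deficient mean of Mm034 was 0.28 and that of Mm015 was -0.09. Relative to the median probe, PXR-deficient Mm015 was at -0.25 and Mm034 at 0.11 with spike-in centring, and at -0.44 and -0.07 in the authors' deposited table. PXR-deficient minus CAR-deficient ran from -1.09 for Mm059 to -0.33 for Mm034 as first computed. It was below 0 for the 5 members with a value in all 39 alternatives. That sign follows in part from the choice of the members by low PXR-deficient ratios, and the alternatives reuse the same arrays.

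Within the PXR-deficient arrays the members' means were below 0 at both positions, from -1.04 to -0.21 at the higher and from -1.19 to -0.26 at the lower. These ratios chose the members, so the signs follow in part from that choice. Mm024 had a ratio on 2 arrays at each position. The alike replicates 1 and 2 lay at different positions, so the positions are not independent. Apart from Mm024, every member was above background in at least 1 channel on all 24 arrays. Mm059 was not above it in Cy5 on WT replicate 4 or in Cy3 on WT replicate 5. No spot of any member had saturated pixels. Their brightness ranks among the 80 probes were 7 for Mm150, 18 for Mm015, 22 for Mm034, 26 for Mm102 and 38 for Mm059. Mm015, Mm034, Mm102 and Mm150 were printed in block 1 of the array, and Mm024 and Mm059 in block 2.

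Likeness between probes was taken as the mean absolute difference of their log2 ratios over the samples that measured both, with at least 12 such samples. These include PXR-deficient samples, whose ratios chose the members, so closeness between members follows in part from that choice. Distances over unlike numbers of samples are not strictly comparable. Mm015 and Mm150 were close to each other, at 0.28 over 23 samples, and Mm063 was the other nearest probe of each, at 0.29 for Mm015 and 0.27 for Mm150 over 14 samples. Mm059 was nearest to Mm150 (0.38 over 23 samples) and Mm063 (0.49 over 14 samples). Mm034 was nearest to Mm079 (0.14 over 17 samples) and Mm104 (0.15 over 19 samples). Mm102 was nearest to Mm135 (0.19 over 18 samples) and Mm104 (0.22 over 19 samples). Mm024 shared too few samples with any probe. Of these neighbours, Mm135 averaged -0.36 and Mm063 averaged -0.07 in PXR-deficient liver, beside -1.04 for Mm150 and -0.63 for Mm015.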

How the data were processed

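Analyses started from 24 two-colour scanner files. Per the file headers, they give mean spot intensity and background intensity in each channel, the percent of saturated pixels, a flag and a signal-to-noise score, which was not used. The authors' deposited value table holds log2 ratios, which correlated with the scanner ratios at 0.78 to 0.99; how it was centred is not given in the sources used here. Scanner, image software and the meaning of the flags are likewise not given there.

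With limma 3.58.1 in R 4.3.3, background was corrected by normexp (offset 50), arrays were normalized by loess over unflagged mouse probe spots with controls at weight 0, spots with a negative flag were dropped, and the 3 copies of each probe averaged. Testing required at least 2 copies over background by 2 SD, in either channel, on 12 or more arrays. All groups shared 1 fit (lmFit, eBayes), and p-values were adjusted within each of 6 comparisons. Channel levels used Aquantile normalization after loess, leaving out flag -100 spots. For WT replicate 1 the second channel's treatment tag names phenobarbital, while its source name and protocol give the vehicle pool; it was read as the pool. Per the labels, a scorecard was added to the treated RNA and luciferase to the pool, so equal spike-in amounts are not certain. The number of arrays, not a read depth, limits precision.

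The 6 members and the lists were chosen with earlier results of these data known. Named probes were the members, the 2 most alike probes of each and those lower than the highest member in PXR-deficient liver; Mm154 and Mm055, just above it, were added to show the edge. Planned gene lists, cell type markers and the receptors' own transcripts could not be used, since no source used here pairs probes with genes. Replicate numbers were not taken to pair samples in the main fit. Over 36 same-number pairs the correlation of deviations ran from -0.52 to 0.68 (median 0.02), with 14 over 0.1. Pairs of unlike number were not computed for comparison, so a pairing of some arrays was not tested. The fit was tested on simulated data. Background corrections, scalings, filters, weights, samples and the count of alike arrays were varied.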

Additional observations from a re-analysis of the deposited data

Results flagged for a closer look

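In 69 groups of samples examined for a far value, 5 held one, and chance gives about 1 in 20 groups. Mm024 in treated CAR/PXR-deficient liver was at 8.26 in replicate 6, beneath 8.99 to 9.27 in the other samples. Mm034 in CAR-deficient replicate 2 was low in both channels, at 10.49 in treated liver against 11.23 to 11.32 in the other samples, and at 10.40 in the pool against 11.06 to 11.45. The same array was high for the Mm059 pool, at 10.80 against 10.28 to 10.43. The Mm150 pool on PXR-deficient replicate 3 was at 14.16, above 13.26 to 13.49.

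As first computed, the response of Mm102 differed between genotypes, with CAR/PXR-deficient minus WT at -0.41 (limma adjusted p = 0.0298). The difference kept its direction and passed in 22 of 40 alternative settings. Scaling to the calibration spike-ins reversed its sign (1.05, limma adjusted p = 0.00264). The values deposited by the authors did so too (1.46, limma adjusted p = 0.000879). Fitting only the compared groups lost the call (limma adjusted p = 0.155).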

How the results depend on the processing

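Scaling had the widest effect. With spike-in centring the number of members passing was 0 for the WT response, 4 for CAR-deficient, 5 for CAR/PXR-deficient, 3 for CAR-deficient minus WT and 5 for CAR/PXR-deficient minus WT, while 15 of 80, 54 of 78, 74 of 80, 50 of 78 and 74 of 80 of all probes passed. In the authors' deposited table these were 0, 4, 6, 2 and 6, with 1 for CAR/PXR-deficient minus CAR-deficient, while 3 of 80, 35 of 79, 74 of 80, 16 of 79, 61 of 80 and 17 of 79 probes passed. After median centring of it they were 1 (CAR-deficient, 10 of 79 probes), 5 (CAR/PXR-deficient, 30 of 80), 2 (CAR/PXR-deficient minus WT, 17 of 80) and 3 (CAR/PXR-deficient minus CAR-deficient, 17 of 79). Median centring of the scanner ratios gave 2 in WT, where 24 of 80 probes passed. Both scalings turned signs as follows, spike-in value first and the authors' deposited table's second: WT Mm034 -0.13 and -0.12; CAR-deficient Mm015 0.60 and 0.74, Mm150 0.71 and 0.79; CAR/PXR-deficient Mm015 0.71 and 1.06, Mm059 0.43 and 0.75, Mm102 1.21 and 1.59, Mm150 0.80 and 0.92. For CAR-deficient minus WT they were Mm015 0.91 and 1.03, Mm034 0.93 and 1.02, Mm102 0.57 and 0.68, Mm150 0.42 and 0.69. For CAR/PXR-deficient minus WT they were Mm015 1.02 and 1.36, Mm024 1.72 and 2.51, Mm059 0.97 and 1.08, Mm102 1.05 and 1.46, Mm150 0.52 and 0.82. For CAR/PXR-deficient minus CAR-deficient they were Mm015 0.11 and 0.33, Mm102 0.48 and 0.78, Mm150 0.10 and 0.14, with Mm059 0.045 in the table alone. After median centring of the table, CAR-deficient Mm015 0.10 and Mm150 0.15, CAR/PXR-deficient Mm102 0.17, CAR-deficient minus WT Mm015 0.27 and Mm034 0.27, and CAR/PXR-deficient minus WT Mm024 0.43 had turned. Median centring of the scanner ratios turned CAR-deficient Mm059 to -0.036 and Mm150 to 0.019, and CAR/PXR-deficient Mm102 to 0.039.

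Other settings turned values near 0. CAR/PXR-deficient minus WT of Mm024 turned to 0.079 with no background correction, 0.23 with flag -50 spots kept, 0.65 with the higher position alone and 0.52 without WT replicates 2 and 6. With flag -50 spots kept, CAR-deficient minus WT was 0.028 for Mm015 and 0.053 for Mm034. WT Mm150 was -0.032 with array weights, -0.040 with alike pairs counted once, -0.047 with the higher position alone and -0.19 without WT replicates 2 and 6, which also turned CAR-deficient minus WT of Mm150 to 0.062 and CAR/PXR-deficient minus WT of Mm034 to -0.055. CAR/PXR-deficient Mm102 was 0.046 with the higher position alone and 0.0017 without CAR/PXR-deficient replicates 1 and 2.

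The number of members passing for CAR/PXR-deficient minus WT was 0 with flag -50 spots kept, array weights, alike pairs counted once, the higher position alone, WT replicates 2 and 6 left out, or the compared groups fitted alone. Array weights gave 1 in CAR-deficient liver (20 of 78 probes) and 1 for CAR/PXR-deficient minus CAR-deficient (19 of 78). Leaving out WT replicates 2 and 6 gave 0 in WT and 1 for CAR/PXR-deficient minus CAR-deficient, as did leaving out CAR/PXR-deficient replicates 1 and 2 for the last. The higher position alone and the group fitted alone each gave 1 in CAR/PXR-deficient liver, and WT fitted alone gave 0. With the replicate block, CAR/PXR-deficient minus WT had 2 members passing (Mm015 joined, limma adjusted p = 0.0290). The other 5 comparisons had the same number, though in CAR/PXR-deficient liver Mm150 passed (limma adjusted p = 0.0283) and Mm024 had no value. Whether replicate numbers pair samples is not known. Mm024 also had no value under the stricter filter. The position block, the higher position alone and the samples left out in pairs were chosen after seeing the data.

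Leaving out each replicate in turn gave 1 to 2 members in WT, 1 to 4 in CAR/PXR-deficient liver, 0 to 1 for CAR-deficient minus WT, 0 to 2 for CAR/PXR-deficient minus WT and 0 to 1 for CAR/PXR-deficient minus CAR-deficient. Values that crossed 0 in doing so were CAR-deficient minus WT of Mm015 (-0.12 to 0.014), Mm034 (-0.10 to 0.0017) and Mm059 (-0.047 to 0.25), CAR/PXR-deficient minus WT of Mm024 (-0.80 to 0.52) and Mm034 (-0.0088 to 0.10), CAR-deficient Mm059 (-0.019 to 0.10), WT Mm059 (-0.21 to 0.10) and Mm150 (-0.047 to 0.20), and CAR/PXR-deficient Mm102 (-0.061 to 0.050). Of the called values, Mm015 in CAR/PXR-deficient liver kept its direction and passed in 38 of 40 alternatives, Mm102 in WT in 36 of 40, Mm059 in 34 of 40 and Mm024 in 24 of 38. With spike-in centring Mm015 passed as a rise instead (0.71, limma adjusted p = 0.00301). In the authors' deposited table Mm015 (1.06, limma adjusted p = 0.000217) and Mm059 (0.75, limma adjusted p = 0.0296) also passed as rises. Where a call was lost, the cause was not tested. Signal over background limits Mm024 above all.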
